A study of Mus musculus with 12 samples.

Results

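Arkadia-null and wild type (WT) mouse embryonic stem cells were compared after 3 h of Activin A. This comparison took 4 of the 12 RNA-seq libraries of the series. They came from 2 WT lines (18 and 26) and 2 Arkadia-null lines (25 and 39), all of strain 129SvEv, with 1 library per line. All lines were maintained in 2i medium with LIF and moved to N2B27 on fibronectin for 24 h. They were then held in 10 µM SB431542 (SB), which blocks the Activin and Nodal receptor kinases, for 4 h. The inhibitor was washed out and 10 ng/ml Activin A was added for 3 h. The 4 libraries taken in SB before Activin and the 4 taken at 6 h of Activin serve only as a background for the 3 h values. No dish received fresh medium without Activin. The labels do not describe the null allele, so each genotype is represented by its 2 lines, and genotype and line of origin cannot be told apart beyond them.

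Rnf111 encodes Arkadia, a ubiquitin ligase with a RING domain that acts in the Activin, Nodal and TGFβ pathway. Activin binds type II and type I receptor kinases, which phosphorylate SMAD2 and SMAD3. These join SMAD4 and DNA-binding partners such as FOXH1 on target genes. SnoN (Skil) and SKI hold SMAD target genes back, and SMAD7 blocks the receptors. Arkadia is known to mark SnoN, SKI and SMAD7 for degradation once the pathway is active. In pluripotent cells the pathway drives Nodal, Lefty1, Lefty2 and mesendoderm genes, and the BMP branch, through SMAD1 and SMAD5, drives the Id genes.

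The values are FPKM, which are read counts scaled to transcript length and to library size. A difference is null minus WT on the scale of log2(FPKM + 1), so that −1 is close to a fold of 2 for a well expressed gene and less than the true ratio for a weak one. A gene is named called, and described as higher or lower, where the limma p-value adjusted by Benjamini-Hochberg over all 12823 tested genes was under 0.05. The spread was pooled over the 6 groups of 2 lines. Each library is a separate cell line at 3 h, and an exact permutation test of 2 lines against 2 cannot give a p below 0.333. Leaving out all libraries of WT line 18, or of WT line 26, left 0 called genes, against 136 without null line 25 and 8 without null line 39. Without a single 3 h library 8 to 18 genes were called (8 without WT line 18, 11 without WT line 26, 18 without null line 25 and 14 without null line 39).

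At 3 h limma called 49 genes (0.382% of those tested). Of these, 17 were higher in null lines (0.133%) and 32 lower (0.25%). Among the lower genes were Gal, Skil, Pmepa1, Cd40 and Fgf5, and among the higher ones Id1, Id2, Id3, Anxa1 and Wls. Of these, 4 higher (0.0312% of all tested) and 8 lower genes (0.0624%) differed by more than 2-fold on the log2(FPKM + 1) scale. All 49 genes had groups that did not overlap, which was also the case for 22.6% of all tested genes in the direction of null above WT and for 25.6% in the opposite direction. With the cell line as a replicate block 14 of the 49 lost their call, 5 higher and 9 lower, at limma adjusted p from 0.052 to 0.085. An unadjusted p under 0.05 was found for 1655 genes (12.9%), 632 higher (4.93%) and 1023 lower (7.98%). The median difference over all genes was −0.0043, with a median SE of 0.115.

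Whole-library values at 3 h were compared between genotypes. Summed FPKM was 710393 to 721405 for WT and 779113 to 785508 for null libraries, so both null libraries were above both WT libraries. Correlations of log2 values between the 4 libraries ran from 0.988 to 0.993. Reads per library are not in the table. The step between the lowest values put the depth of WT line 18 at 1.28, WT line 26 at 1.25 and null line 25 at 1.09 times that of null line 39. These ratios rest on only 13 of 25, 18 of 26 and 21 of 35 low loci and are rough. All 10 embryonic stem cell markers were present, with summed levels of 2388 to 2421 FPKM in WT and 2130 to 2352 FPKM in null lines.

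**Figure D1:**
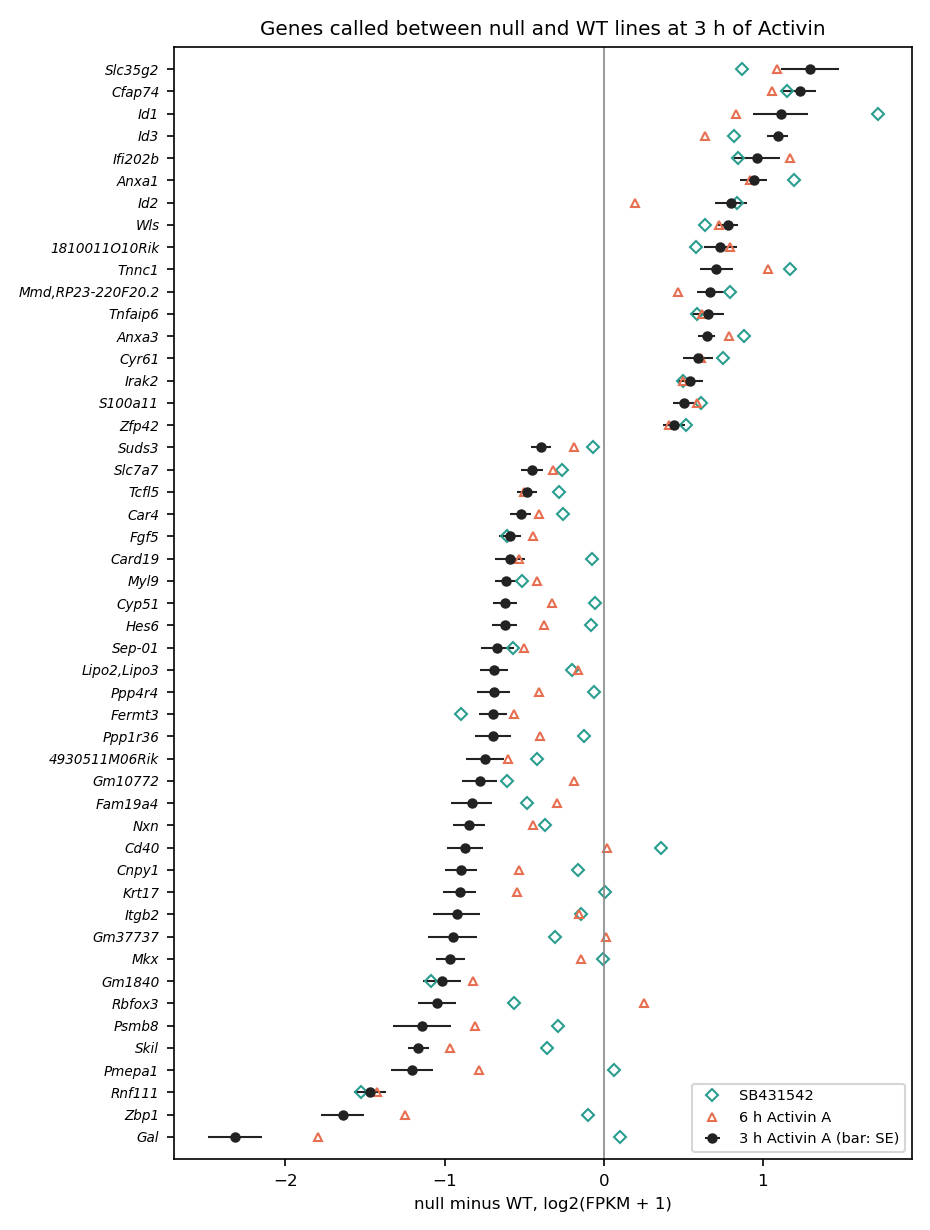
Null minus WT difference on the log2(FPKM + 1) scale (horizontal axis) of the 49 genes called at 3 h (vertical axis). Black points with bars are the 3 h difference and its SE, diamonds the difference in SB and triangles that at 6 h. The 17 higher genes lie from 0.44 to 1.29 and the 32 lower genes from −2.32 to −0.40. Many diamonds of the lower genes lie near 0.

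Rnf111, whose transcript checks the labels, was lower in null lines (chromosome 9, 70425429 to 70503834, mm10, minus strand). WT lines 18 and 26 had 3.85 and 3.76 FPKM at 3 h, against 0.832 and 0.650 FPKM for null lines 25 and 39. Both null libraries were below both WT libraries, and a residual signal remained in each. The difference was −1.47 (SE 0.101, limma adjusted p = 0.00095), and it was −1.52 in SB and −1.43 at 6 h. None of the 10 tested genes next to Rnf111 on the chromosome was called at 3 h, and their median difference was 0.01.

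Skil encodes SnoN, the SMAD corepressor that Arkadia degrades (chromosome 3, 31094618 to 31122577, plus strand). Its transcript stood at 35.5 and 38.6 FPKM in WT lines 18 and 26 at 3 h and at 15.7 and 16.2 FPKM in null lines 25 and 39. The null lines thus lay below the WT lines with no overlap, and the lines of a genotype were close together. WT expression was 2.32 times the null expression (difference −1.16, SE 0.065, limma adjusted p = 0.00043). In SB, before Activin, Skil was at 10.9 and 11.1 FPKM in WT and 8.81 and 7.97 FPKM in null lines, a difference of −0.36 that was not called (limma adjusted p = 0.075). At 6 h the difference was −0.96 (limma adjusted p = 0.0013).

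Pmepa1 encodes a transmembrane protein that is induced by TGFβ signals and binds SMADs to restrain them. At 3 h it stood at 9.50 and 9.58 FPKM in WT lines and 3.71 and 3.43 FPKM in null lines. The genotypes were again apart, at a difference of −1.21 (SE 0.13, limma adjusted p = 0.010). In SB all 4 libraries were below 0.3 FPKM, from 0.0449 in null line 25 to 0.279 in null line 39. At 6 h the WT lines were at 2.60 and 3.47 FPKM and the null lines at 1.31 and 1.35 FPKM, which was not called (limma adjusted p = 0.064). The locus of the table (chromosome 2, 173224843 to 173225468) covers a share of only 0.012 of the annotated gene, so the value describes that stretch. The call held in 1 of the 8 fits with a line or library left out.

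Zbp1, a sensor of Z-form nucleic acids, is a neighbour of Pmepa1 and was lower as well. It stood at 4.78 and 4.02 FPKM in WT and 0.595 and 0.871 FPKM in null lines at 3 h, with no overlap (difference −1.64, SE 0.134, limma adjusted p = 0.0022). In SB it was at 0.112 and 0.165 FPKM in WT and 0.0333 and 0.0895 FPKM in null lines. At 6 h the WT lines were at 4.84 and 6.19 FPKM and the null lines at 1.75 and 1.71 FPKM (limma adjusted p = 0.011). Its locus (chromosome 2, 173206757 to 173207831) ends 17011 bases before the Pmepa1 locus and covers a share of 0.087 of the gene. Whether the authors counted by strand is not stated, and reads of overlapping genes could not be separated here.

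Gal, which encodes the neuropeptide galanin, had the largest difference of the 49 genes. At 3 h it stood at 9.89 and 11.7 FPKM in WT lines 18 and 26, against 1.59 and 1.14 FPKM in null lines 25 and 39. WT lines were thus well above null lines, at 7.88 times their level (difference −2.32, SE 0.173, limma adjusted p = 0.0013). Before Activin the 4 libraries overlapped, with 0.301 and 0.185 FPKM in WT and 0.487 and 0.190 FPKM in null lines. At 6 h the levels were 5.70 and 7.29 FPKM in WT and 1.37 and 0.949 FPKM in null lines (difference −1.79, limma adjusted p = 0.0073). Of the 10 tested peptide hormone genes, Gal was the only one called. The 2 members with the largest positive values, Nts (neurotensin) and Nppb (a natriuretic peptide), were at 1.19 and 0.91 with limma adjusted p of 0.146 and 0.137.

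The promoters of Gal and Fgf5, which were lower, and of Id2 and Id3, which were higher, are shown so that called genes of either direction can be compared at their start sites. Each window runs from 250 bases before to 50 after the RefSeq start (GRCm38.p6). Of the 49 called genes, 30 had an entry in the RefSeq table, and Skil, Pmepa1 and Id1 are named only. Both strands were searched for the SMAD box CAGAC, for the GC-rich SMAD motif GGCGC and for the FOXH1 core AATCCAC. Capitals mark these letters or their reverse complement, 5′ to 3′ along the gene, and matches of GGCGC on opposite strands may overlap, as in Id2. Gal is at chr19:3414495-3414794 (minus strand), Fgf5 at chr5:98253934-98254233 (plus), Id2 at chr12:25096043-25096342 (minus) and Id3 at chr4:136143572-136143871 (plus).
Gal: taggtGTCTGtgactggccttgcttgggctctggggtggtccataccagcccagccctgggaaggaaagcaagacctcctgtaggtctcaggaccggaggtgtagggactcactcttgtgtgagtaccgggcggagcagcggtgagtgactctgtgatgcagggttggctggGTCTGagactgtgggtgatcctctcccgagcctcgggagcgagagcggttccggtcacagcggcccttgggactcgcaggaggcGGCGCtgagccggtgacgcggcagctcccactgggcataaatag
Fgf5: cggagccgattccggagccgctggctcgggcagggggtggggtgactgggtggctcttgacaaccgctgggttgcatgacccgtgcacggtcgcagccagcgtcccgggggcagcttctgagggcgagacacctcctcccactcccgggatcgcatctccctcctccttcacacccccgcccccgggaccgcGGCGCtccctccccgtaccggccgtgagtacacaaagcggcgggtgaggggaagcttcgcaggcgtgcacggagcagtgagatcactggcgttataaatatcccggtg
Id2: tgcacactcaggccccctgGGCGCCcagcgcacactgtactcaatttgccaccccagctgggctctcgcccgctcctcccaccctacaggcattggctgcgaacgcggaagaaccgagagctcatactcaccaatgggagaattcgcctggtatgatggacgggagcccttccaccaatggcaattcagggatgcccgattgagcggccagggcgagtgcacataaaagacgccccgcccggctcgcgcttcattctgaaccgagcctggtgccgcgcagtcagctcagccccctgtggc
Id3: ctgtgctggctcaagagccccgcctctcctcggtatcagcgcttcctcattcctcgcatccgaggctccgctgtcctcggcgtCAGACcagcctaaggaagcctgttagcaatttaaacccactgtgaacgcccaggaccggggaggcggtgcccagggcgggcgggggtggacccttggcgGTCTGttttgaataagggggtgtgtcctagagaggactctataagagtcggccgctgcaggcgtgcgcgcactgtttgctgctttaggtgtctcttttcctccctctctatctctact
Gal held 2 SMAD boxes and 1 GC-rich motif, and Id3 held 2 SMAD boxes and 0 GC-rich motifs. Fgf5 held 0 SMAD boxes and 1 GC-rich motif, and Id2 held 0 and 2. The FOXH1 core was in 0 of the 4 windows. Over 32851 RefSeq promoter windows of the same length, 49.6% held the SMAD box, 36.9% the GC-rich motif and 2.49% the FOXH1 core. The SMAD box was in 14 of the 30 matched called genes, so these letters are common everywhere and the counts describe the windows only. Fgf5 was named by the rule for sequences, while Gal, Id2 and Id3 were chosen after their values were seen.

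**Figure D2:**
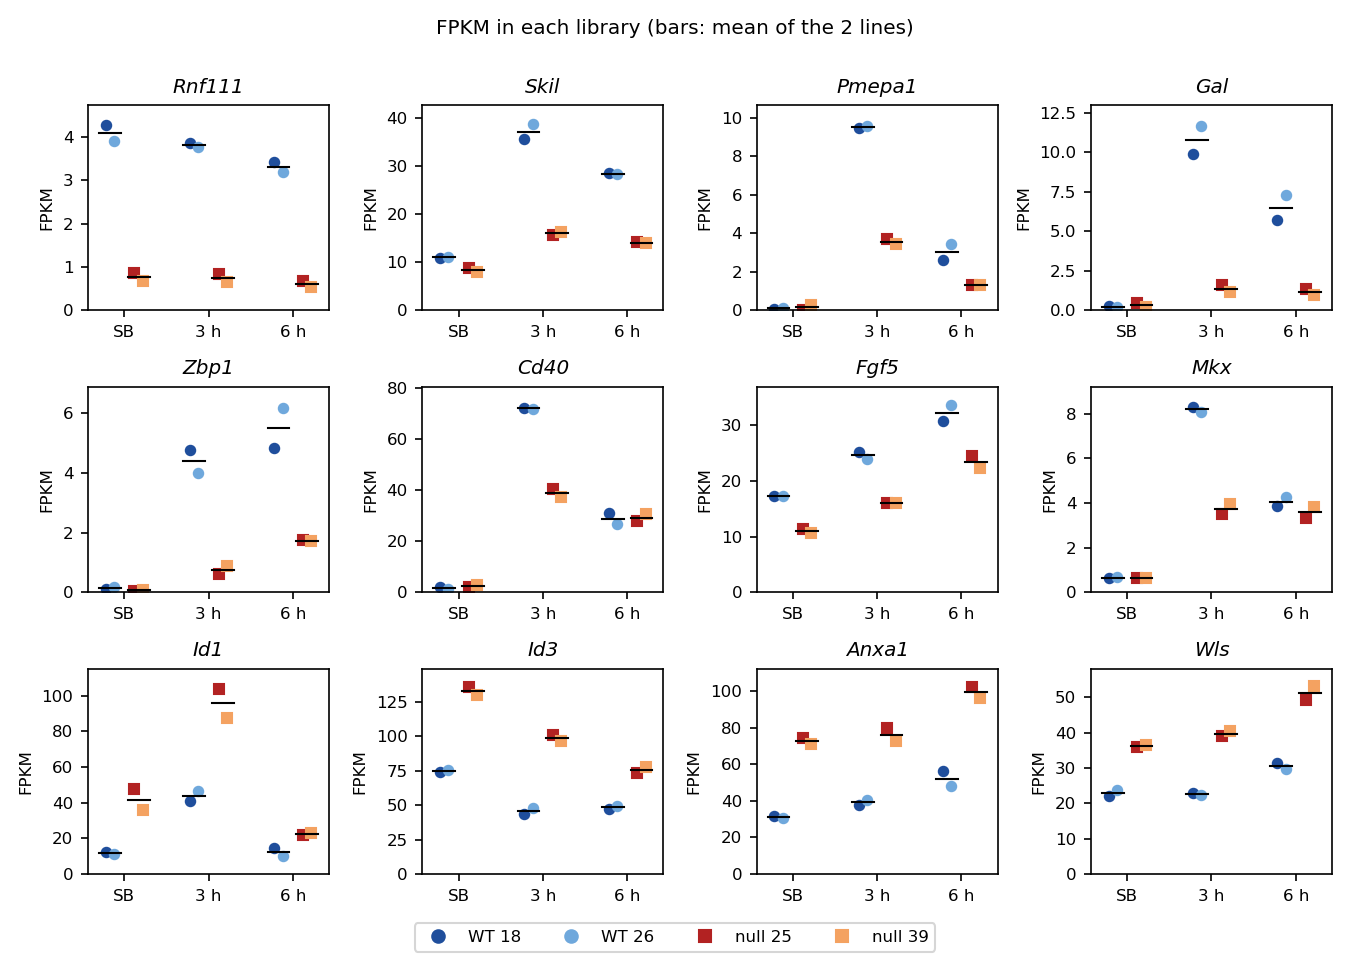
FPKM (vertical axes, linear, from 0) in SB, at 3 h and at 6 h of Activin (horizontal axes) for 12 called genes. Circles are the 2 WT lines, squares the 2 null lines, and bars the mean of 2 lines. Gal, Pmepa1, Zbp1 and Mkx are near 0 in SB in both genotypes and differ at 3 h, while Id3, Anxa1, Wls and Fgf5 differ already in SB.

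Cd40 encodes a receptor of the TNF receptor family. At 3 h its level was 72.1 and 71.5 FPKM in WT lines and 40.5 and 37.2 FPKM in null lines, with no overlap (difference −0.87, SE 0.116, limma adjusted p = 0.021). Before Activin it was at 1.89 and 1.42 FPKM in WT and 2.11 and 2.69 FPKM in null lines, with the null lines as the upper pair. By 6 h the lines overlapped, at 30.8 and 26.7 FPKM in WT and 28.0 and 30.4 FPKM in null lines. The difference at 6 h was 0.02. Mkx, a homeobox gene known from tendon, had a like course. It was at 8.30 and 8.11 FPKM in WT and 3.50 and 3.95 FPKM in null lines at 3 h (difference −0.96, limma adjusted p = 0.0032), and its differences in SB and at 6 h were −0.00 and −0.14.

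Psmb8, a subunit of the immunoproteasome, was at 3.31 and 4.10 FPKM in WT and 1.45 and 0.851 FPKM in null lines (difference −1.14, limma adjusted p = 0.048, and 0.052 with the replicate block). Its WT levels were above both null levels in SB and at 6 h too. Psmb8 and Cd40 were the 2 called members of 19 tested interferon-type genes (Cd40 alone with the block), whose median difference was −0.21. Both null libraries were below both WT libraries for 13 of the 19, against 25.6% of all genes. Irf1, the interferon regulatory factor of this list, was at 76.9 and 85.3 FPKM in WT and 65.3 and 56.3 FPKM in null lines (limma adjusted p = 0.13). Ifi202b, an interferon-inducible gene of a multi-copy family and outside the list, was higher instead, with a difference of 0.96 (limma adjusted p = 0.041), and its reads may be shared with its copies.

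Fgf5, a growth factor gene of the epiblast, stood at 25.2 and 24.0 FPKM in WT lines and 16.1 and 15.9 FPKM in null lines at 3 h. The gap was −0.59 (SE 0.069, limma adjusted p = 0.011), and it was as large in SB, where WT lines were at 17.3 and 17.2 FPKM and null lines at 11.3 and 10.7 FPKM (difference −0.61, limma adjusted p = 0.0097). Of 18 formative and primed epiblast genes, 15 had a negative difference (median −0.16), against 51.1% of all genes. Fgf5 was the called member. Members near it were not called, namely Fgf15 (−0.61, limma adjusted p = 0.15) and Tcf15 (−0.61, limma adjusted p = 0.053).

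Further lower genes covered several unrelated roles. Nxn, a thioredoxin-family gene, was at 54.7 and 52.3 FPKM in WT and 30.9 and 27.8 FPKM in null lines (difference −0.85, limma adjusted p = 0.011). Krt17, a keratin gene, was at 5.09 and 4.34 FPKM in WT and 1.91 and 2.19 FPKM in null lines (difference −0.90). Hes6, a bHLH factor gene of the Hes family, was at 251 and 253 FPKM against 176 and 151 FPKM (difference −0.62, limma adjusted p = 0.017). In each of these the null lines were the lower pair. Cyp51, which encodes the lanosterol demethylase of cholesterol synthesis, was at 120 and 105 FPKM against 70.1 and 75.6 FPKM (difference −0.62, limma adjusted p = 0.016). It was the called member of 19 cholesterol genes, of which 18 had a negative difference (median −0.15), against 51.1% of all genes. Myl9, a myosin regulatory light chain gene, was at 42.1 and 41.8 FPKM against 27.4 and 26.7 FPKM (difference −0.61), with −0.51 in SB.

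At partial loci, which cover a share under 0.5 of the annotated gene and describe only that stretch, 9 of the 32 lower genes were found. They included Rbfox3, a neuronal splicing factor gene (difference −1.05, share 0.0011), Itgb2, a leukocyte integrin gene (−0.92, share 0.242, limma adjusted p = 0.085 with the replicate block), Cnpy1 (−0.90, share 0.202), Gm1840 (−1.02) and Gm37737 (−0.95, limma adjusted p = 0.055 with the replicate block). Rbfox3 was at 3.26 and 2.74 FPKM in WT and 1.12 and 0.758 FPKM in null lines. At 6 h the order of its genotypes was the opposite, with a difference of 0.25 that was not called. The other lower genes had differences from −0.83 (Fam19a4) to −0.40 (Suds3, a SIN3 complex gene), and among them were Car4, a carbonic anhydrase gene, Slc7a7, an amino acid transporter gene, and Tcfl5. The calls of Fam19a4, Slc7a7 and Suds3 were lost with the replicate block (limma adjusted p = 0.055, 0.056 and 0.052). One row of the table carried a name in the form of a date (chromosome 7, 127214426 to 127232923; difference −0.67) and cannot be assigned to a gene by name.

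The core of the pathway was not called at 3 h. Of 10 tested receptor genes 0 were called, with a median of −0.00, among them Tgfbr1 (−0.18) and Bmpr1a (−0.07). Bmpr2 (0.10) and Tgfbr3 (0.63, limma adjusted p = 0.53) were measured at partial loci, with shares of 0.0061 and 0.0021. Of 9 SMAD and partner genes 0 were called, with a median of 0.03. Smad2 was at 9.38 and 9.09 FPKM in WT and 9.56 and 10.2 FPKM in null lines, and Smad4 at 10.5 and 10.0 against 9.71 and 9.56 FPKM. Foxh1, which recruits SMAD2 to DNA, was at 23.0 and 22.2 against 23.5 and 22.9 FPKM. Smad3, the other Activin effector, was weak, at 0.896 and 0.937 FPKM in WT and 1.29 and 1.29 FPKM in null lines. Its null lines were the upper pair, at the largest difference of the list (0.26, SE 0.107, limma adjusted p = 0.37). The other 8 differences ran from −0.10 to 0.09. Apart from Skil, the corepressor list of 8 had 0 called members, and Ski itself was at 5.74 and 6.72 FPKM in WT and 6.25 and 5.78 FPKM in null lines, an overlap. Of 15 ubiquitin pathway genes only Rnf111 was called, while Rnf4, Ube2n, Ppm1a and Uchl5 had differences from −0.11 to 0.09.

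Ligand and antagonist genes gave 0 calls of 13, though several values were low in null lines. Lefty1, a secreted Nodal antagonist, was at 93.8 and 111 FPKM in WT and 70.5 and 49.4 FPKM in null lines (difference −0.78, SE 0.165, limma adjusted p = 0.12). Lefty2 was at 47.8 and 49.3 FPKM against 27.9 and 21.0 FPKM (difference −0.98, SE 0.187, limma adjusted p = 0.091). Nodal itself was at 57.5 and 56.6 FPKM against 40.8 and 43.5 FPKM (difference −0.43, limma adjusted p = 0.13). For these 3 genes the groups did not overlap, but the null lines were spread further apart for Lefty1 and Lefty2 than for Skil. Tdgf1, the Nodal co-receptor Cripto, was at 280 and 300 FPKM against 210 and 259 FPKM (difference −0.31, limma adjusted p = 0.44).

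The list of Activin and Nodal targets had 26 tested members, of which 0 were higher and 3 lower (Pmepa1, Skil and Fgf5). Of the 26, 22 had a negative difference, against 51.1% of all genes, and 12 had an unadjusted p under 0.05 in that direction, against 7.98%. Both null libraries were below both WT libraries for 19 and above for 1, against 25.6% and 22.6% of all tested genes. The median of the list was −0.27 at 3 h, 0.04 in SB and −0.17 at 6 h, and the medians of all genes in the 3 treatments were −0.0043, −0.0031 and −0.014. Nanog was at 80.0 and 85.1 FPKM in WT and 69.9 and 67.2 FPKM in null lines (difference −0.26, limma adjusted p = 0.27), and Ccne1 at −0.12. Smad7, the receptor inhibitor that Arkadia also degrades, was at 11.4 and 12.2 FPKM against 8.46 and 9.30 FPKM (difference −0.37, limma adjusted p = 0.15). Bambi, a decoy receptor gene, was at 0.13. Of 9 feedback inhibitors 2 were called (Skil and Pmepa1), with a median of −0.37. Both of these, and Lefty1, Lefty2, Smad7 and Bambi, are also in the target list, so the 2 lists are not separate evidence. The 3 called Activin and Nodal targets include Fgf5, whose difference was as large before Activin.

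**Figure D3:**
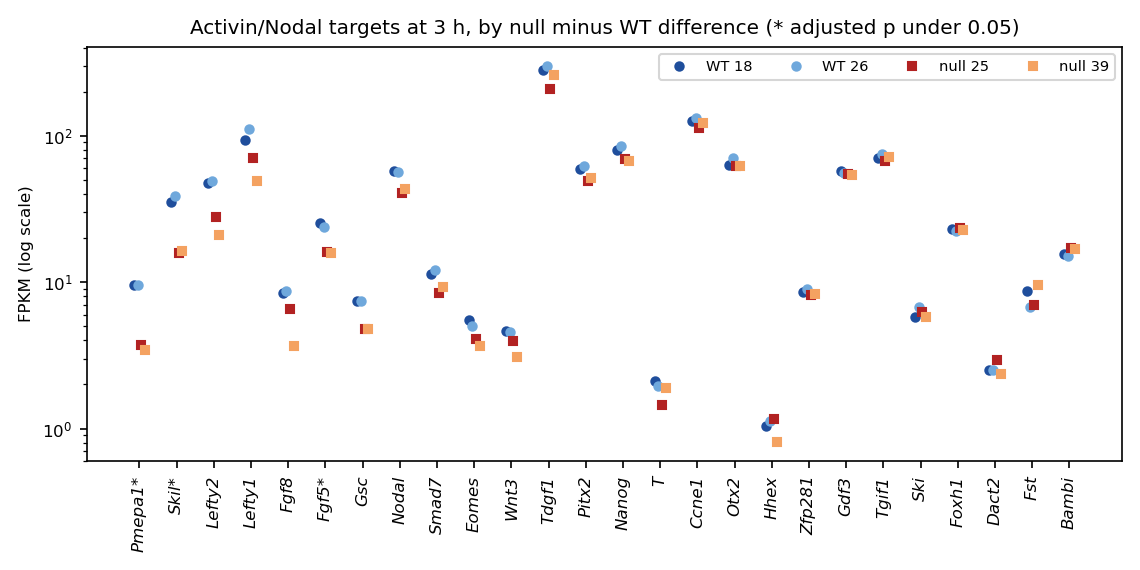
FPKM at 3 h of Activin (vertical axis, log scale) of the 26 tested Activin and Nodal targets (horizontal axis), in order of the null minus WT difference. Circles are WT lines, squares null lines, and an asterisk marks adjusted p under 0.05. Null lines are below WT lines for 19 genes (as for 25.6% of all tested genes), with the widest gaps for Pmepa1 and Skil at the left.

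Of 7 tested mesendoderm genes, which mark the primitive streak, 0 were called. All 7 differences were negative (median −0.35), as were 51.1% of those of all tested genes. Gsc, the organizer homeobox gene, was at 7.48 and 7.44 FPKM in WT and 4.77 and 4.75 FPKM in null lines (difference −0.56, SE 0.124, limma adjusted p = 0.13). Fgf8 was at 8.42 and 8.65 FPKM against 6.53 and 3.67 FPKM, with null line 39 apart from null line 25 (difference −0.69, limma adjusted p = 0.21). Gsc, Eomes, Fgf8 and further members of this list are also in the list of Activin targets, so these lists are not separate evidence. Markers of endoderm summed to 17.6 to 21.2 FPKM in WT and 12.7 to 16.6 FPKM in null lines, with 0 of 7 called and Sox17 and Foxa2 below 1 FPKM in all 4 libraries. Lama1, at a partial locus, made up most of the WT sum (14.6 and 9.76 FPKM, against 5.80 and 4.98 FPKM in null lines). Gata4 was also lower in both null libraries (2.24 and 2.83 against 1.57 and 1.95 FPKM). Dab2 (1.73 and 1.40 against 2.92 and 2.33 FPKM) and Afp (0.242 and 0.625 against 1.86 and 1.09 FPKM) went the other way, and Col4a1 overlapped. In bulk RNA, fewer cells of a type and less RNA per cell cannot be told apart.

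The Id genes, which encode inhibitors of bHLH transcription factors and are classical BMP targets, had 3 of 4 members higher in null lines (Id1, Id2 and Id3). Id1 stood at 41.0 and 46.4 FPKM in WT and 104 and 87.7 FPKM in null lines (difference 1.11, SE 0.173, limma adjusted p = 0.044). With the cell line as a replicate block the Id1 call was lost (limma adjusted p = 0.062), and 2 of the 4 Id genes were called. Id3 was at 43.5 and 48.0 FPKM against 101 and 96.6 FPKM (difference 1.09, SE 0.066, limma adjusted p = 0.00043). Null levels of Id1 and Id3 were above WT levels in every treatment. Id2 was at 15.4 and 14.3 FPKM in WT and 26.7 and 26.5 FPKM in null lines (difference 0.80, limma adjusted p = 0.016). Id4 was at 2.11 and 2.69 FPKM against 3.36 and 5.27 FPKM, which was not called (difference 0.63, limma adjusted p = 0.56).

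Before Activin the gaps of the Id genes were present too. In SB Id1 was at 12.2 and 11.4 FPKM in WT and 47.5 and 36.0 FPKM in null lines, a difference of 1.73 (limma adjusted p = 0.0061). For Id2 and Id3 the SB differences were 0.84 and 0.82, both called (limma adjusted p = 0.013 and 0.0024). By 6 h the difference of Id2 was 0.20 and not called, with 9.52 and 10.8 FPKM in WT and 12.1 and 11.4 FPKM in null lines. Among 19 tested BMP targets the 3 Id genes were the called ones, 16 differences were positive, and the median was 0.22. The 4 Id genes are among these 16, and 51.1% of all tested genes had a negative difference. Smad6, the inhibitory SMAD gene of the BMP branch, was at 1.16 and 1.04 FPKM against 1.51 and 1.17 FPKM, and Msx1 at 17.8 and 17.8 against 18.6 and 17.2 FPKM.

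Anxa1 and Anxa3 encode annexins, which bind membranes when calcium is present, and S100a11 a small calcium-binding protein. Anxa1 was at 38.0 and 40.3 FPKM in WT and 79.6 and 72.8 FPKM in null lines at 3 h (difference 0.94, SE 0.084, limma adjusted p = 0.0025). Anxa3 was at 30.6 and 30.1 FPKM against 49.1 and 47.1 FPKM (difference 0.65, SE 0.056, limma adjusted p = 0.0025). S100a11 was at 47.9 and 48.0 FPKM against 66.4 and 70.7 FPKM (difference 0.51, limma adjusted p = 0.027). In all 3 the null lines were the upper pair, as they were in SB and at 6 h, where each was called. Of the 13 tested members of this list, 3 were higher and 0 lower (median 0.49), and S100a6 and S100a10 were at 0.76 and 0.56 with limma adjusted p of 0.054 and 0.091.

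Summed fibroblast and trophoblast markers were compared beside these genes, since both sums had null libraries above WT libraries. The 7 measured of 10 neural markers did so too (28.8 to 29.0 against 30.9 to 34.9 FPKM), with 0 called. The 9 measured of 12 fibroblast markers summed to 88.8 to 102 FPKM in WT and 122 to 150 FPKM in null lines, with Prrx1 below 1 FPKM in all 4 libraries and 0 called. Vim, which stem cells also express, made up most of that sum (84.5 and 72.4 against 123 and 102 FPKM). Col3a1, a fibrillar collagen gene, was at 2.15 and 1.86 against 4.16 and 4.03 FPKM. Col1a1, Col1a2, Twist1 and Prrx1 also had both null libraries above both WT libraries, as had 22.6% of all tested genes. Dcn went the other way, at 1.29 and 1.67 against 1.15 and 1.10 FPKM, and Thy1 and Pdgfrb overlapped between genotypes. The 9 measured of 12 trophoblast markers summed to 96.2 to 104 against 123 to 168 FPKM, mostly from Krt8 and Krt18, with 0 called, and Cdx2 was at 1.02 and 1.04 against 1.49 and 1.25 FPKM. Eomes had both null libraries below both WT libraries (difference −0.35, limma adjusted p = 0.19), and Hand1 and Krt7 overlapped. The part of such cells in the higher genes was not tested.

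Other higher genes had a range of roles. Wls, which carries WNT proteins to the cell surface, was at 23.0 and 22.4 FPKM in WT and 39.0 and 40.4 FPKM in null lines (difference 0.78, SE 0.065, limma adjusted p = 0.0022). Slc35g2, a solute carrier family gene, was at 1.24 and 1.20 against 5.69 and 3.43 FPKM (difference 1.29, limma adjusted p = 0.029). Cfap74, a cilium gene, was at 0.132 and 0.0820 against 1.47 and 1.74 FPKM (difference 1.23, limma adjusted p = 0.0023), at a partial locus with a share of 0.223. Each of them had its null lines above its WT lines in SB and at 6 h as well. Tnnc1, a troponin C gene, had a difference of 0.71, Tnfaip6, a hyaluronan-binding protein gene, 0.66, Cyr61, a matrix protein gene and YAP target, 0.59, and Irak2, a kinase gene of interleukin-1 signalling measured at a partial locus, 0.54. All 4 of these calls were lost with the replicate block (limma adjusted p = 0.062, 0.054, 0.052 and 0.052). Zfp42 (Rex1), a marker of naive pluripotency, was at 45.5 and 42.3 FPKM in WT and 62.1 and 57.7 FPKM in null lines (difference 0.44, limma adjusted p = 0.042). It was the called member of 12 naive genes, of which 9 had a positive difference (median 0.23). Over all tested genes 51.1% of differences were negative.

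In SB null lines differed from WT lines at 40 genes (0.312%), 32 higher (0.25%) and 8 lower (0.0624%). At 6 h they differed at 27 (0.211%), 19 higher (0.148%) and 8 lower (0.0624%). These lists came from other libraries of the same 4 lines, but from the same fit, which gives each gene the same SE in every treatment. Overlap between the lists is therefore not independent evidence. Of the 17 higher genes 12 were called in SB and 9 at 6 h. Of the 32 lower genes 5 were called in SB and 6 at 6 h. All 17 genes shared with SB and all 15 shared with 6 h kept their direction. The 17 made up 34.7% of the 3 h list and 42.5% of the SB list, and the 15 made up 30.6% of the 3 h list and 55.6% of the 6 h list.

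The median difference of the 17 higher genes was 0.73 at 3 h, 0.82 in SB and 0.72 at 6 h. For the 32 lower genes the medians were −0.81, −0.26 and −0.43. The members were chosen on the 3 h values, so a smaller median elsewhere is in part what that choice gives. Tested gene by gene, the gap at 3 h minus the gap in SB had 0 genes called by limma, with 654 (5.1%) at an unadjusted p under 0.05, 265 positive (2.07%) and 389 negative (3.03%). That set held 22 of the 32 lower genes and 4 of the 17 higher ones, which the choice on 3 h values favours. In this test the replicate block was a fixed term for each line, whereas for the 3 h difference it was a correlation within lines. With it 3 genes were called, all with a negative change of gap: Gal, Tdgf1 and Gm44732. Tdgf1 was not called at 3 h (difference −0.31), and its difference in SB was 0.48 (limma adjusted p = 0.25). Gal had a change of gap of −2.42 (limma adjusted p = 0.064, and 0.021 with the block), Skil −0.81 (limma adjusted p = 0.084) and Cd40 −1.23 (limma adjusted p = 0.11). Gap at 3 h minus gap at 6 h gave 0 calls by limma, with and without the block, and 486 genes (3.79%) at an unadjusted p under 0.05.

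**Figure D4:**
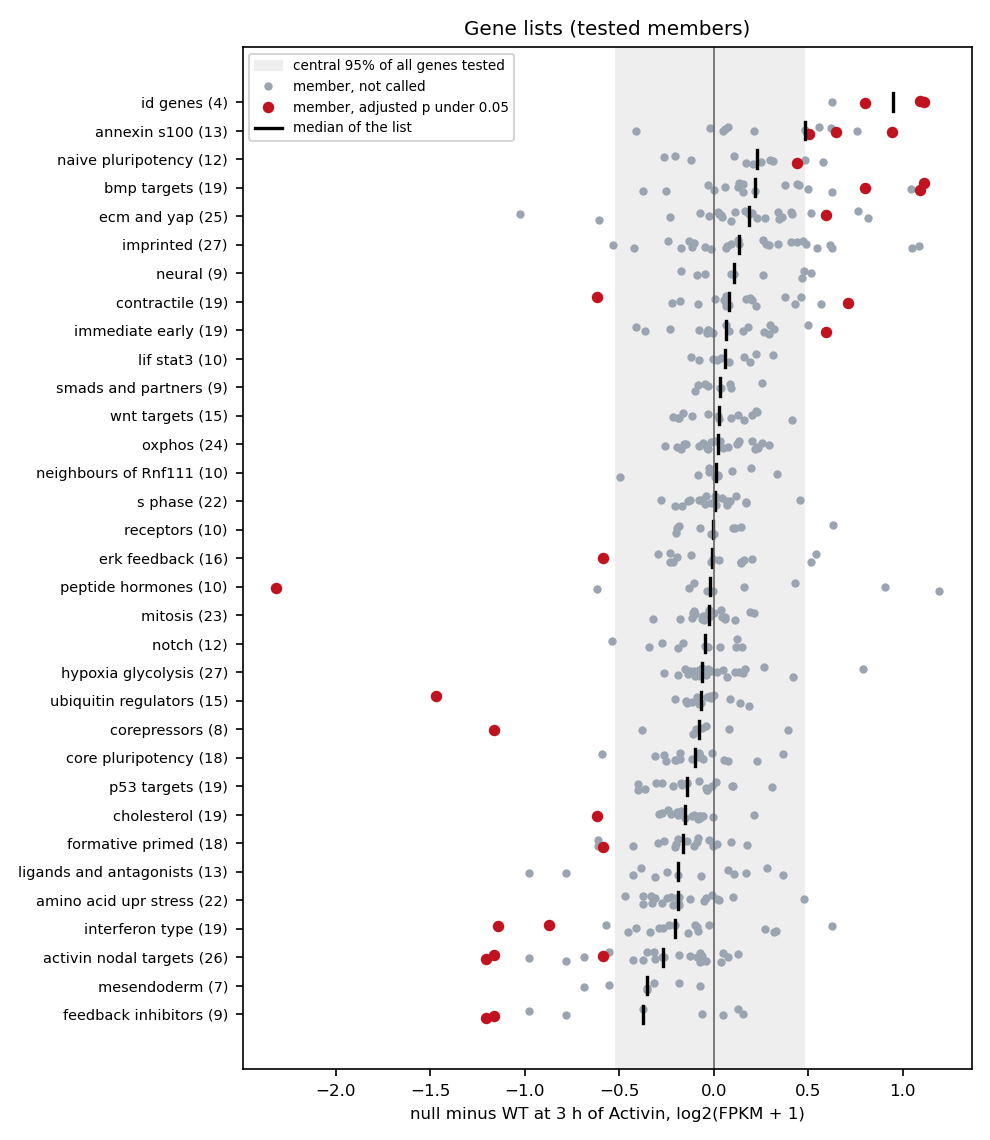
Null minus WT difference at 3 h on the log2(FPKM + 1) scale (horizontal axis) of the tested members of each gene list (vertical axis, with the number tested). Red points are called, grey points are not, black ticks are list medians, and the shaded band holds the central 95% of all genes tested. Id genes and annexin and S100 genes have medians of 0.95 and 0.49, and feedback inhibitors of −0.37.

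Lists outside the pathway gave few or no calls. Genes of oxidative phosphorylation (24 tested), mitosis (23), p53 signalling (19), glycolysis and hypoxia (27), S phase (22), neural fate (9) and Notch (12) had 0 called members each. So did imprinted genes (27), WNT targets (15), genes of the LIF receptor, JAK and STAT3 pathway with its targets (10) and genes of the stress responses to unfolded proteins and amino acid shortage (22). The medians of these lists ran from −0.19 (stress genes) to 0.14 (imprinted genes). Among 18 core pluripotency genes 0 were called. Pou5f1 was at 884 and 843 FPKM in WT and 698 and 809 FPKM in null lines, and Sox2 at 26.1 and 25.4 against 35.0 and 32.0 FPKM (difference 0.36, limma adjusted p = 0.15). Contractile genes had 1 higher (Tnnc1) and 1 lower member (Myl9) of 19, and immediate early genes 1 higher (Cyr61) of 19, where the Tnnc1 and Cyr61 calls are those lost with the replicate block. The lean to lower values was not only in pathway lists. Both null libraries were below both WT libraries for 15 of 22 stress genes and 14 of 19 cholesterol genes. The same held for 11 of 18 core pluripotency genes and 9 of 19 p53 genes, against 25.6% of all tested genes. Both were above for 2, 1, 2 and 3 of them, against 22.6%. Unadjusted limma p was under 0.05 and lower for 8, 6, 3 and 6 (7.98% of all), and higher for 1, 0, 2 and 1 (4.93%).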

How the data were processed

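RNA-seq expression was deposited by the authors as FPKM per locus and library, per the file headers. The build is mm10 per the submitters' processing notes. Sources used here name no aligner, quantifier, annotation, strand setting or further scaling. Of 17446 loci, 2666 had no gene name, 3.41 to 3.86% of all FPKM in a library, and were left out of the main test. Named autosomal loci of status OK gave 13508 genes with 1 locus per name (highest mean FPKM), of which 12823 reached 1 FPKM in 2 or more libraries and were tested. Loci were compared with GENCODE M21 (GRCm38), which 95.3% matched. Log2(FPKM + 1) was fitted by limma 3.58.1 (R 4.3.3) with 6 group means over all 12 libraries, a variance trend with expression, which leaves 6 residual degrees of freedom. On simulated data for null against WT at 3 h (12823 genes, 200 changed), 87% of genes changed by 1 and 94% of those changed by 2 log2 units were recovered, with 3.21% false calls. The simulated noise was independent for each library, with no effect shared by the libraries of a line. The rates therefore do not carry over to these lines, whose libraries had a consensus correlation within lines of 0.344. Depth in reads is not in the table, so no counting intervals are given.

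The replicate number is the cell line, so it pairs libraries across treatments by design. Deviations from the group means correlated at 0.017 to 0.054 within WT lines and 0.246 to 0.349 within null lines. WT and null share no line. Alternatives were the pseudocount, the filter, scaling, the trend, summed loci, loci covering a share of 0.5 or more of the gene, the groups alone, the line block and leaving out each line or 3 h library. A joint fit with the unnamed loci was chosen after seeing the data.

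The members and gene lists were chosen with earlier results of these data known. Named genes were Rnf111, the 15 called genes with the largest rise and the 15 with the largest fall, called and most abundant uncalled members of the pathway lists, and the leading members of the other lists. Lefty and Smad7 family values, Gsc, Irf1, Ski, Smad6, Id4, Msx1 and other genes outside that rule were chosen after their values were seen.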

Additional observations from a re-analysis of the deposited data

Results flagged for a closer look

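Unnamed loci, which stayed out of the comparisons above, held 3 calls at 3 h among 2275 tested together with the named genes. Of these, 2 were higher in null lines. A locus on the X chromosome that overlaps Nup62cl stood at 31.7 and 36.1 FPKM in WT lines 18 and 26 and 53.2 and 54.4 FPKM in null lines 25 and 39, a difference of 0.655 (limma adjusted p = 0.041) with no overlap of the groups. It was 0.73 in SB and 0.90 at 6 h. An X-linked locus that overlaps Glod5 stood at 5.38 and 5.30 FPKM in WT and 10.6 and 10.6 FPKM in null lines, a difference of 0.873 (limma adjusted p = 0.025), again without overlap. These loci carry no name in the table, and the gene is that of the annotation at the same position.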

How the results depend on the processing

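For null against WT at 3 h, the 49 calls became 32 with a pseudocount of 0.1 (11 higher and 21 lower) and 0 with only the groups compared, which leaves 2 residual degrees of freedom. Under the other alternatives that kept all libraries the count ran from 35 to 55. With the cell line as a replicate block it was 38, of which 35 were among the 49. Leaving out a line or a 3 h library gave 0 to 136 calls. Of the 49 genes, 0 changed direction in any of the 20 alternatives in which they were tested. Some weak genes or partial loci among the 49 were left out by the filter of 5 FPKM or by the locus share of 0.5. Each gene was therefore counted only over the alternatives that tested it. Of the 49, 25 were called in every alternative that kept all libraries and all groups, 9 in at least 4 of the 8 fits with a line or library left out, and 21 in 0 of these. Rnf111, Gal, Skil and Id3 were called in 6 of the 8, and lost their call without WT line 18 or WT line 26 (Skil adjusted p = 0.26 and 0.11).

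For the gap at 3 h minus the gap in SB, 0 calls became 1 with loci that cover a share of 0.5 or more of the gene, 5 with a pseudocount of 5, 2 with quantile normalization and 3 with the replicate block, the last 3 all lower. Leaving out lines or libraries gave 0 there and for the gap at 3 h minus the gap at 6 h. Null against WT in SB gave 0 with only the groups compared and 0 to 2047 without a line, and at 6 h 0 and 0 to 1508. The cause of these shifts was not tested, apart from the fewer samples and genes that some alternatives hold. The unknown read depth limits weak genes, for which the scale of log2(FPKM + 1) understates the ratio.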

Other observations

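The remaining unnamed locus called at 3 h was lower in null lines and lies within Dppa2, a gene of pluripotent cells (chromosome 16, 48303785 to 48304302). It stood at 3.23 and 3.13 FPKM in WT lines and 0.896 and 0.854 FPKM in null lines (difference −1.16, limma adjusted p = 0.0499). In SB it was at 0.302 and 0.247 FPKM in WT and 0.260 and 0 FPKM in null lines. The named Dppa2 locus was at 34.9 and 33.2 FPKM in WT and 26.9 and 18.5 FPKM in null lines at 3 h and was not called (difference −0.59, limma adjusted p = 0.33). Null line 39 was the lowest library at the named locus and both null lines were alike at the unnamed one.

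Of 12 germline and early embryo markers 7 were measured, with 0 called. Ddx4, Dazl, Prdm1, Nanos3 and Mael had both null libraries below both WT libraries, and Dppa3 had both above. The same held for 25.6% and 22.6% of all tested genes. Dazl (1.84 and 1.69 against 1.22 and 0.532 FPKM) and Nanos3 (0.857 and 1.61 against 0.714 and 0.259 FPKM) were weak. Ddx4, a germ cell RNA helicase gene, was at 9.42 and 10.3 FPKM in WT and 8.42 and 6.47 FPKM in null lines. Mael, a gene of piRNA biology, was at 14.7 and 13.2 against 10.1 and 5.46 FPKM, and Dppa3 at 6.61 and 8.99 against 13.6 and 10.6 FPKM. The sum of the 7, which was mostly Sycp3, was 111 to 130 FPKM in WT and 82.9 to 123 FPKM in null lines. Sycp3, a meiosis gene, was at 71.2 and 83.1 FPKM in WT and 46.1 and 98.5 FPKM in null lines 25 and 39, so the null lines lay on either side of the WT lines. Prdm1, a transcription factor gene of germ cell specification, was at 5.89 and 10.9 FPKM against 2.69 and 1.64 FPKM. Lama1, a basement membrane laminin gene, was at 14.6 and 9.76 FPKM against 5.80 and 4.98 FPKM (difference −1.02, limma adjusted p = 0.15), at a partial locus. Phlda2, an imprinted gene, was at 19.6 and 44.1 FPKM in the WT lines and 63.1 and 60.9 FPKM in the null lines, with the WT lines apart from each other (difference 1.05, limma adjusted p = 0.40).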
